A study of Mus musculus with 4 samples.

Results

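Principal cells of the collecting duct were examined as cluster 13 of a single-nucleus RNA sequencing study of mouse kidney cortex. The cluster was taken as the deposited columns numbered 13, with 1 column for each of 4 libraries, and its nuclei came to 351 of 16195 in all, as recovered from the lowest values of the table. Principal cells take up sodium through the epithelial sodium channel and water through aquaporins, and they secrete potassium. Vasopressin acts on them through its V2 receptor and cyclic AMP, which brings the water channel Aqp2 to the apical membrane, while aldosterone acts through the mineralocorticoid receptor to raise sodium uptake. In the cortex they lie beside intercalated cells, downstream of the connecting tubule.

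There was 1 library for each of 4 genotypes, which were wild type (WT), the Sco2 mutant Sco2KO/KI, the diabetic mutant db/db, and both combined in Sco2KO/KI;db/db, called the double mutant. Sco2 encodes a protein of the mitochondrial inner membrane that hands copper to cytochrome c oxidase during its assembly, and KO/KI names a knockout allele over a knock-in allele that the labels do not specify further. The db allele of the leptin receptor gene Lepr removes its signalling form, and db/db mice become obese and diabetic. Both Sco2 alleles and the db allele are germline changes, so they were not limited to the collecting duct. The labels give the strain of all 4 as C57BL/6J and the tissue as kidney cortex from kidneys perfused with a buffered salt solution and kept in RNALater. The sources used here give neither ages nor sexes, nor whether a library came from 1 animal or from several.

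Levels are normalised values, the mean over the nuclei of a cluster of each nucleus's UMIs scaled to a total of 10000, and unspliced transcripts were included. Where 4 values stand together they are in the order WT, Sco2KO/KI, db/db and double mutant. Cluster 13 held 107, 27, 119 and 98 nuclei. These were 2.07% of the nuclei in WT (exact 95% binomial interval 1.70 to 2.50), 2.29% in Sco2KO/KI (1.51 to 3.31), 2.60% in db/db (2.16 to 3.10) and 1.86% in the double mutant (1.51 to 2.26), and the intervals cover counting error only. The 4 intervals overlapped. The recovered UMI totals had medians of 2138, 2398, 1564 and 2000. They numbered 110, 38, 119 and 107, in all but db/db more than the nuclei, so some are not the total of a nucleus. The Sco2KO/KI library was the smallest, with 1181 nuclei in all clusters. At these medians, which are approximate, 1 UMI in cluster 13 was worth 0.154 in Sco2KO/KI against 0.0437 to 0.0537 in the other libraries. With 1 library per genotype no difference was tested, and every value below describes these libraries only. Fewer nuclei with a transcript and fewer transcripts per nucleus cannot be told apart in cluster means.

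The cluster carried the transcripts that define principal cells. Of 16 principal cell markers, 10 were higher in cluster 13 than in each of the other 20 clusters, and 15 were among the 2 highest clusters. Clusters were made from the same genes, so this is a description of identity and no test. The water channels Aqp2 and Aqp3 had means over the libraries of 18.1 and 6.23, and the next highest cluster in each case was cluster 8, at 4.95 and 1.77. Cluster 8 exceeded cluster 13 for the sodium channel subunits Scnn1g, at 6.63 against 5.05, and Scnn1b, at 9.47 against 8.75. The potassium channel Kcnj1 stood at 4.10 and was higher in 3 other clusters. Cluster 8 also held more connecting tubule transcripts, with a summed level of 8 markers of 362 against 48.2 in cluster 13.

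**Figure D1:**
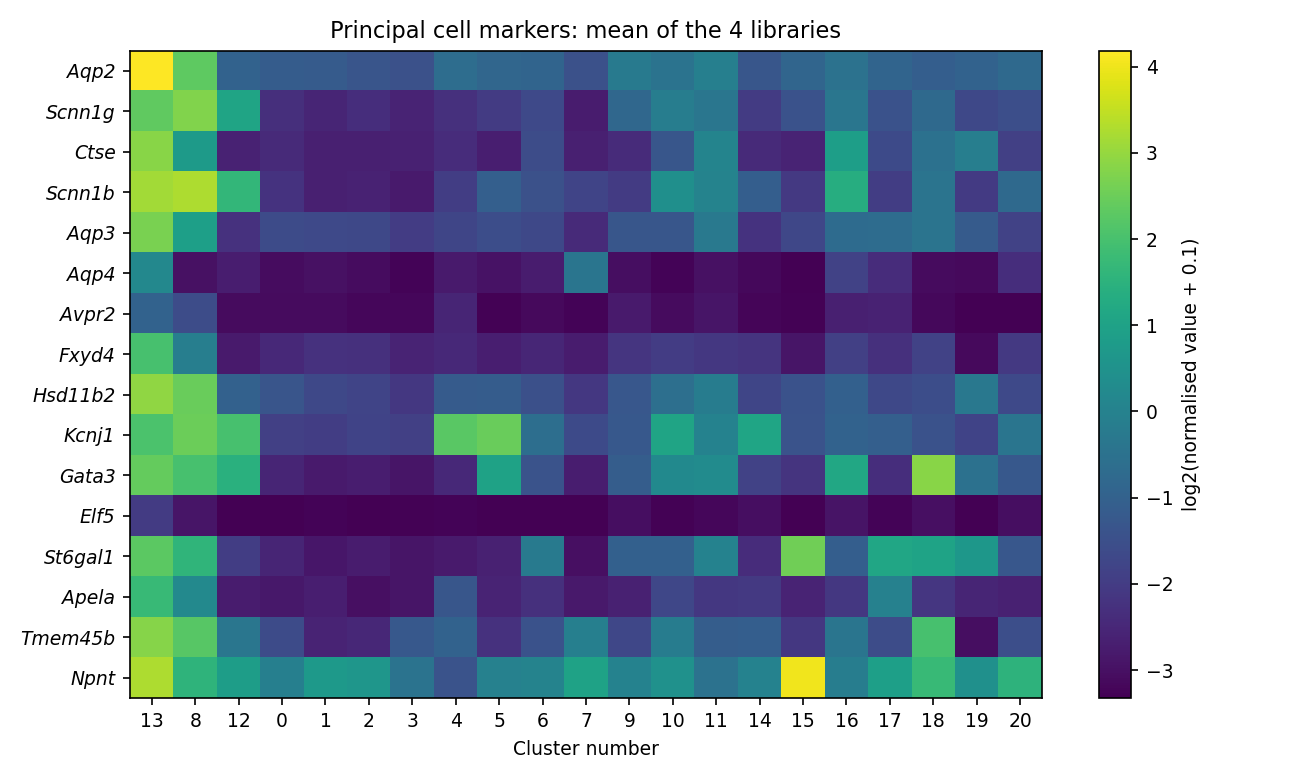
Mean level over the 4 libraries of 16 principal cell markers (rows) in each of 21 clusters (columns, with clusters 13, 8 and 12 first), as log2 of the normalised value after adding 0.1. Cluster 13 has the highest colour for 10 markers, and cluster 8 is next for most of them.

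Among all genes at 1.0 or more, those with the largest lead over the next cluster were mostly not the classical markers. Mgat4c, a glycosyltransferase gene, was at 20.5, 16.4, 15.4 and 21.8, while its highest mean in another cluster was 0.736. Mcoln3, which encodes a cation channel of lysosomes, was at 1.5, 1.51, 1.99 and 1.16, against 0.0963 in the next cluster. Both were present at similar levels in all 4 libraries. Spock3, a proteoglycan gene, was at 2.81, 3.04, 4.19 and 5.16. The EGF receptor ligand Btc had the fifth largest lead, but its level differed between libraries. The voltage-gated potassium channel genes Kcnh5 and Kcnc2, the prostaglandin E receptor Ptger1, the peptide hormone gene Apela and Fxyd4, a regulator of the sodium pump, were also among the 20 genes with the largest lead.

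Transcripts of other cells were present at levels that differed between libraries. The summed level of 22 proximal tubule markers in cluster 13 was 81.8, 114, 33.5 and 56.2, of which Kap, an abundant proximal tubule transcript, made up 29.0, 45.6, 4.21 and 6.37. The summed level of 8 thick ascending limb markers was 12.9, 6.28, 6.62 and 4.21. Sums for 9 type A intercalated cell markers were 4.42, 2.68, 2.31 and 3.09, and for 7 type B markers 1.93, 1.02, 1.28 and 1.87. The sums were 14.2, 12.3, 11.4 and 19.6 for 7 distal convoluted tubule markers and 22.7, 22.5, 32.9 and 18.4 for 6 podocyte markers. Of the podocyte sum, Magi2 made up 22.0, 21.7, 31.9 and 17.6, and the defining marker Nphs1 was at 0.15, 0, 0.0254 and 0.0571. Sums of the endothelial, leukocyte, stromal and urothelial lists were at most 1.94 in any library. The proximal tubule sum, with Kap included, thus stood lower in both db/db libraries. Over the list's genes at 0.5 or more, the median log2 ratio was -1.23 in db/db against WT, with 3 of 21 positive. It was -0.52 in the double mutant against Sco2KO/KI, with 9 of 20 positive. In Sco2KO/KI against WT it was 0.48, with 16 of 22 positive, and in the double mutant against db/db 0.99, with 17 of 20 positive. The part of RNA from other cells in any difference below was not tested.

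The principal cell water channels Aqp2 and Aqp3 had their lowest values in Sco2KO/KI. Of 5 water channel genes at 0.5 or more in Sco2KO/KI or WT, 3 were past the fold below WT and 0 above, against 11.6% and 10.2% of all genes. The fold is an absolute log2 ratio of 1 with at least 0.5 in 1 of the libraries compared. Aqp2, the vasopressin-regulated channel of the apical membrane, was at 28.2, 5.90, 21.8 and 16.4. Its log2 ratio, taken throughout after adding 0.1 to both values, was -2.24 in Sco2KO/KI against WT and -0.41 in the double mutant against db/db. Aqp3, the channel of the basolateral membrane through which water leaves the cell, was at 9.47, 2.36, 7.59 and 5.49, with log2 ratios of -1.96 and -0.46 in the same comparisons. Aqp4, the other basolateral channel, was at 2.19, 0.631, 0.940 and 0.419, lowest in the double mutant and highest in WT. Cluster 8 also had less Aqp2 signal in Sco2KO/KI than in WT, 2.40 against 7.55. In the 13 other clusters with at least 20 nuclei in both libraries the log2 ratio of Aqp2 was negative in 13 of 13, with a median of -1.52. For Aqp3 it was negative in 12 of 13, with a median of -0.65. Apart from cluster 8, these clusters held little of either transcript. Aqp2 reached no more than 1.28 in WT and 0.266 in Sco2KO/KI there, and Aqp3 no more than 0.514 and 0.339.

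Aqp2 lies on chromosome 15, the chromosome of Sco2, at 99579055 to 99584547 on the plus strand of mm10, 10.2 Mb from Sco2. An effect of the Sco2 alleles and of a linked chromosome segment cannot be told apart. Aqp3 lies on chromosome 4 at 41092722 to 41098183, minus strand. The 250 bases before the RefSeq start of each gene are shown because the 2 channels had low values in the same library. The Aqp2 window is chr15:99578806-99579055, plus strand, and the Aqp3 window chr4:41098184-41098433, minus strand, both from RefSeq on GRCm38.p6, the assembly of mm10, with motif matches in capitals.
Aqp2: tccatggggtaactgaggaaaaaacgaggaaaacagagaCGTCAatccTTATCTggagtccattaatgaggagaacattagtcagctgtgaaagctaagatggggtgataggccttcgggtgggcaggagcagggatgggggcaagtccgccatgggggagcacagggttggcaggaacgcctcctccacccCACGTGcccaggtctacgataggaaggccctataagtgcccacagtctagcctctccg
Aqp3: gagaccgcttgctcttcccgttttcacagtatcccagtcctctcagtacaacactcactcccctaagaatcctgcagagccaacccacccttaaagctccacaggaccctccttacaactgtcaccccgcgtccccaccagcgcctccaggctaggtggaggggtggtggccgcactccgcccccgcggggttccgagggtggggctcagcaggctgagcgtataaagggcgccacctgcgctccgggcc
Both strands were searched for the cAMP response element TGACGTCA, for its core TGACG, for the GATA element AGATAA and for the E-box CACGTG. The Aqp2 window held TGACG on the minus strand at positions -211 to -207 from the start, AGATAA on the minus strand at -202 to -197 and CACGTG at -58 to -53. The Aqp3 window held none of the 4 motifs. Of 32851 promoter windows of this length, 17.8% held TGACG, 9.99% AGATAA, 6.02% CACGTG and 1.55% the full TGACGTCA. A match describes letters only, and TGACG also lies within TGACGTCA.

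Sodium channel subunits stayed within the fold in all 4 comparisons. The 3 subunits of the channel were Scnn1a, at 2.99, 4.75, 5.97 and 4.93, Scnn1b, at 7.14, 7.22, 11.1 and 9.58, and Scnn1g, at 5.43, 3.56, 4.84 and 6.38. The largest of their log2 ratios, that of Scnn1a in db/db against WT, was 0.97. The mineralocorticoid receptor Nr3c2 was at 24.6, 25.5, 30.6 and 20.5. Hsd11b2, the enzyme that shields this receptor from glucocorticoids, was at 7.70, 6.17, 6.20 and 10.4. Nedd4l, the ubiquitin ligase that removes the channel from the membrane, was at 23.2, 17.6, 18.5 and 17.6. Over the whole list of sodium channel and aldosterone response genes, the median log2 ratio was 0.01 in Sco2KO/KI against WT. Of its 32 genes at 0.5 or more, 1 was past the fold above and 3 below, against 10.2% and 11.6% of all genes. The list's median was 0.06 in db/db against WT, -0.03 in the double mutant against db/db and 0.20 in the double mutant against Sco2KO/KI. The transcription factor Zbtb16, a glucocorticoid target, was the gene above WT in both single mutants, at 0.686, 2.06, 1.80 and 2.61.

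Of 8 potassium channel genes at the floor in db/db against WT, 0 were past the fold above and 3 below, against 4.92% and 8.98% of all genes. Those 3 were Kcne1, Kcnk1 and Kcnk5. Of 7 such genes in the double mutant against db/db, 2 were above and 0 below, against 9.69% and 6.47% of all genes. Kcnj16, a basolateral channel subunit, was at 8.94, 8.41, 10.2 and 9.70, and its partner Kcnj10 at 1.46, 2.65, 1.33 and 1.98. Kcnj1, the apical secretory channel ROMK, was at 3.76, 5.29, 2.34 and 5.00, higher in both Sco2 mutant libraries, with log2 ratios of 0.48 and 1.06. Kcne1, an accessory channel subunit, was low in db/db only, at 1.92, 1.39, 0.388 and 2.11. Kcnk5, a background potassium channel, was lower in both db/db libraries, at 1.69, 1.04, 0.572 and 0.237.

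Vasopressin and cAMP signalling genes had medians between -0.16 and 0.17 in the 4 comparisons. The V2 receptor Avpr2 was low throughout, at 0.287, 0.359, 0.380 and 0.635. Among 23 genes of vasopressin and cAMP signalling at 0.5 or more in Sco2KO/KI or WT, the median log2 ratio was -0.04, with 0 genes past the fold above and 4 below, against 10.2% and 11.6% of all genes. The 4 were the adenylyl cyclase Adcy6, the protein kinase A subunit Prkar1a, the phosphodiesterase Pde8a and the membrane fusion gene Stx4a. Adcy6 was at 2.06, 0.888, 1.84 and 1.47. Rapgef3, which encodes the cAMP sensor Epac1, was lowest in the double mutant, at 4.91, 3.15, 4.24 and 1.40. The list of prostaglandin, endothelin, purinergic and bradykinin signalling, with 5 or 6 genes at the floor, had medians of -0.13 in Sco2KO/KI against WT, -0.12 for db/db against WT, 0.35 in the double mutant against db/db and 0.53 in the double mutant against Sco2KO/KI. Its EP1 receptor gene Ptger1 was highest in WT, at 1.78, 0.633, 0.703 and 0.961.

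Among transcription factors of the collecting duct, Tfcp2l1, required for the collecting duct cell types in mice, was at 22.4, 21.6, 23.1 and 14.8, and Mecom at 47.5, 59.9, 65.6 and 54.3. The GATA factors Gata3 and Gata2 were highest in WT, at 6.79, 5.39, 5.18 and 3.72 and at 3.90, 1.99, 2.68 and 2.12. The homeobox genes Pax2 and Sim1 were at 9.37, 8.05, 7.39 and 8.28 and at 8.54, 11.7, 8.87 and 10.8. Of 18 such genes at the floor of 0.5 in db/db against WT, 1 was past the fold above, Emx1, and 2 below, Emx2 and Lhx1, near the 4.92% and 8.98% of all genes. The median log2 ratios in the 4 comparisons lay between -0.32 and -0.13.

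**Figure D2:**
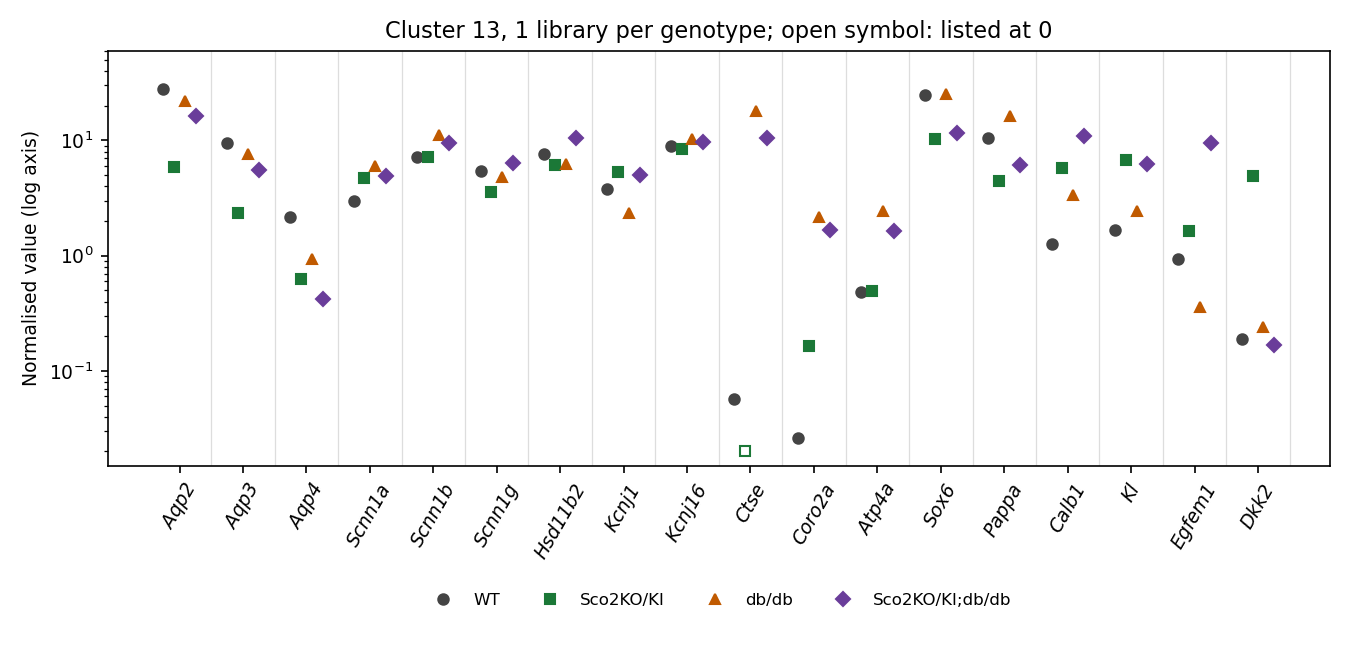
Normalised values of 18 genes in cluster 13 on a log axis, with 1 symbol per library and an open symbol where a gene is listed at 0. Ctse separates the db/db libraries from the others, Sox6 and Pappa separate the Sco2 mutant libraries from the others, and the 3 sodium channel subunits keep within the fold of 2 in each comparison.

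The db/db genotype was compared in mice with intact Sco2 (db/db against WT) and in Sco2 mutants (double mutant against Sco2KO/KI), and these comparisons share no library. The largest log2 ratio in both comparisons, among genes at 1.0 or more, was that of Ctse, a marker given for the cluster. Ctse encodes cathepsin E, an aspartic protease of endosomes, and was at 0.0570 in WT, listed at 0 in Sco2KO/KI, at 18.04 in db/db and at 10.6 with both genotypes combined. The db/db and the other libraries did not overlap, and the log2 ratio was 6.85 in db/db against WT. As a marker of the cluster Ctse therefore stood only in the db/db libraries. Ctse was also above WT in 18 of 18 other clusters of db/db, the median log2 ratio being 1.45 and none as large as in cluster 13. In many of them the db/db level itself was low, such as 0.0958 in cluster 1, 0.0907 in cluster 3 and 0.125 in cluster 5. Cluster 19, left out for its 10 WT nuclei, went the other way, with Ctse at 1.02 in WT and 0.581 in db/db. After cluster 13, the highest Ctse level in db/db was 4.13 in cluster 8, where WT was listed at 0, followed by 2.88 in cluster 16. Ctse lies on chromosome 1 at 131638306 to 131675505, plus strand, and Lepr on chromosome 4.

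In db/db against WT, 232 of 4719 genes at 0.5 or more (4.92%) were past the fold above WT and 424 (8.98%) below. In the double mutant against Sco2KO/KI, 621 of 5038 (12.3%) were above and 639 (12.7%) below. Of 4104 genes at the floor in both, 36 (0.877%) were above in both and 58 (1.41%) below in both. The 36 genes made up 22.2% of the 162 above in db/db against WT and 8.20% of the 439 above in the double mutant against Sco2KO/KI. Calls in opposite directions came to 22 genes above then below and 43 below then above.

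Coro2a, which encodes an actin-binding coronin, followed Ctse. It was at 0.0263, 0.163, 2.16 and 1.66, with log2 ratios of 4.16 and 2.74. Its log2 ratio in db/db against WT had a median of -0.03 over 18 other clusters, and 0 of them exceeded cluster 13. In cluster 8 Coro2a was also higher in the db/db libraries, with log2 ratios of 1.60 and 1.12. Coro2a lies on chromosome 4 at 46536937 to 46602202, 55.2 Mb from Lepr, so linkage to the db allele cannot be told apart from an effect of it. Atp4a, the catalytic subunit of the gastric-type proton-potassium pump, which the collecting duct also uses, was at 0.482, 0.495, 2.46 and 1.64, with log2 ratios of 2.13 and 1.55. Its median in other clusters was -0.05 and 0.35. In db/db against WT 8 of 18 were positive, and 1 exceeded cluster 13, with a log2 ratio of 2.22. In cluster 4 Atp4a was also higher in the db/db libraries, at 0.416, 0.824, 1.24 and 1.66. The cyclic nucleotide phosphodiesterase Pde10a was at 2.52, 1.54, 10.8 and 3.76, and was also high in db/db in cluster 12, at 25.2 against 7.09 in WT. The adhesion gene Cdh3, P-cadherin, was at 0.729, 0.429, 1.82 and 1.93. The clock gene Per2 was at 0.829, 0.620, 2.22 and 1.54, with medians in other clusters of 1.07 and 0.26. In cluster 8 the log2 ratios of Per2 were 1.99 and 0.80. The long noncoding transcript Gm26870 was at 5.96, 6.32, 20.4 and 30.7, and it was above its comparison library in the other clusters too, with medians of 0.77 and 1.48.

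**Figure D3:**
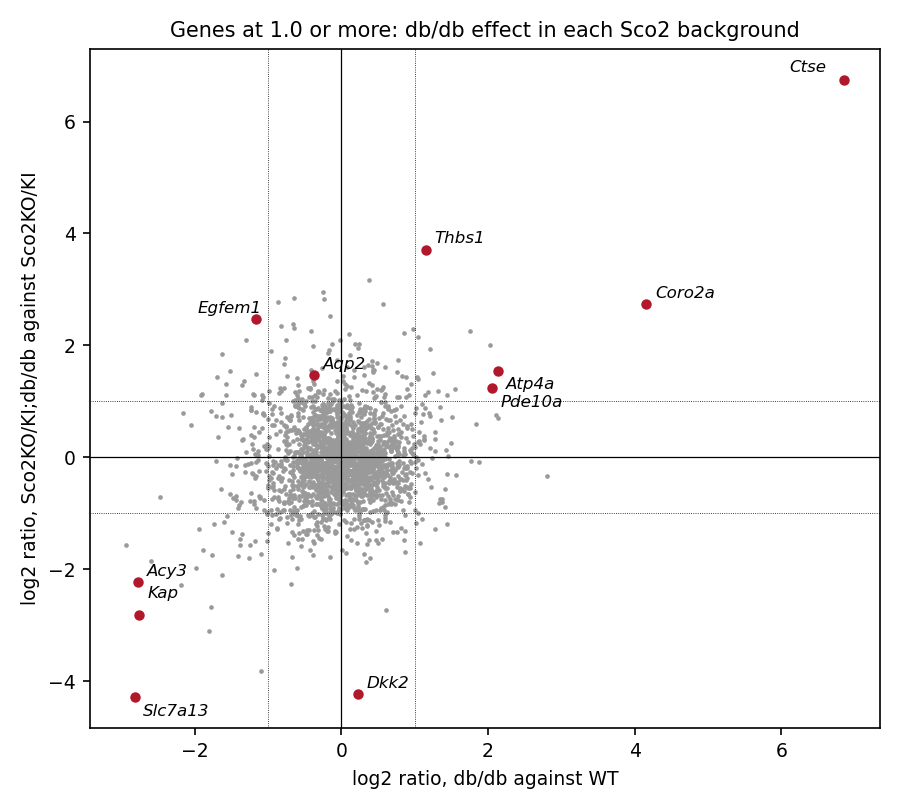
Each point is a gene at 1.0 or more in at least 1 library of each comparison, with the log2 ratio of db/db against WT on the x axis and of the double mutant against Sco2KO/KI on the y axis. Dotted lines mark a log2 ratio of 1 either way. Ctse and Coro2a lie apart at the upper right, and proximal tubule transcripts such as Kap and Slc7a13 lie at the lower left.

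The genes lowest in both db/db libraries included transcripts of the proximal tubule, and the other clusters had negative medians for them too, in some cases closer to 0. Kap had log2 ratios of -2.75 and -2.82 in cluster 13, and medians of -2.92 and -3.39 in the other clusters. The amino acid transporter Slc7a13 was at 1.80, 2.80, 0.17 and 0.0490, the aminoacylase Acy3 at 1.54, 2.36, 0.140 and 0.422 and the transferase Keg1 at 1.39, 3.01, 0.227 and 0.536, and each of the 3 had its highest level elsewhere, in cluster 7. Keg1 had log2 ratios of -2.18 and -2.29, against medians of -0.91 and -1.56 in the other clusters. The lipoprotein lipase gene Lpl, at 1.06, 1.20, 0.195 and 0.231, and the cytochrome P450 genes Cyp2j13 and Cyp2e1 were also low in both db/db libraries. Cyp2j13 had log2 ratios of -2.60 and -1.85, against medians of -1.85 and -0.49 elsewhere. Zcchc6, a uridylyl transferase gene also known as Tut7, was different: at 1.14, 1.44, 0.265 and 0.359 it was low in both db/db libraries of cluster 13 while its medians in other clusters were 0.11 and 0.05.

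Genes that stood apart in db/db against WT alone were the netrin receptor Unc5c, at 0.156, 1.39, 1.69 and 1.08, the ectodysplasin adaptor Edaradd, at 0.175, 0.856, 1.16 and 0.750, and Tmtc1, at 1.75, 2.21, 8.00 and 3.67. Unc5c and Edaradd were low in WT, and Sco2KO/KI stood close to the db/db libraries for both. The epithelial transcription factor Trp63 was high in db/db only, at 0.435, 0.433, 1.87 and 0.468. Below WT were the homeobox gene Lhx1, at 1.15, 0.640, 0.121 and 0.30, the growth factor Fgf1, at 1.00, 0.689, 0.106 and 0.342, and Scamp5 and Tmem127, 2 membrane protein genes. In the double mutant against Sco2KO/KI the extracellular matrix gene Thbs1, at 0.493, 0, 1.22 and 1.21, and the hormone gene Stc1, at 0.401, 0.0948, 0.928 and 2.13, were among the 12 highest log2 ratios. Thbs1 was above in both comparisons, but its 0 in Sco2KO/KI rests on 27 nuclei.

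The Sco2 mutant genotype was compared without db/db (Sco2KO/KI against WT) and on the db/db background (double mutant against db/db), again without a shared library. The transcription factor gene Sox6, at its highest in cluster 13, was lower in both Sco2 mutant libraries, and the calcium-binding gene Calb1 and Kl were higher. In Sco2KO/KI against WT, 515 of 5049 genes (10.2%) were past the fold above and 587 (11.6%) below. In the double mutant against db/db, 455 of 4696 (9.69%) were above and 304 (6.47%) below. Of 4092 genes at the floor in both, 27 (0.66%) were above in both and 33 (0.806%) below in both, against 20 above then below and 43 below then above. The 33 genes were 7.62% of the 433 below in Sco2KO/KI and 15% of the 220 below in the double mutant.

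Sox6 was at 24.9, 10.3, 25.4 and 11.6, alike in WT and db/db, with log2 ratios of -1.26 and -1.12. In cluster 8 Sox6 was at 13.4, 11.5, 19.4 and 8.36, and its median log2 ratio in other clusters was -0.35 and -0.54. Sox6 was named after its values were seen. Pappa, a protease that cleaves insulin-like growth factor binding proteins, was at 10.6, 4.47, 16.4 and 6.14, with log2 ratios of -1.22 and -1.40. In cluster 8 the log2 ratios of Pappa were nearly as large, at -1.19 and -1.19. Xylt1, which starts glycosaminoglycan chains on proteoglycans, was at 1.99, 0.417, 1.99 and 0.432. Its log2 ratios were -2.02 and -1.97, and -2.34 and -1.88 in cluster 8. The metalloprotease Adamts16 was at 1.82, 0.508, 3.49 and 1.32, the myosin light chain kinase Mylk at 2.22, 0.658, 2.85 and 0.752 and the angiomotin family gene Amotl2 at 1.02, 0.154, 1.34 and 0.361. Slc12a1, the loop of Henle cotransporter NKCC2, was at 5.80, 0.898, 2.68 and 0.793, and its medians in other clusters were -1.21 and -1.21.

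Connecting tubule transcripts made up several of the genes higher in both Sco2 mutant libraries. Calb1, the calbindin that carries calcium through distal tubule cells, was at 1.27, 5.74, 3.38 and 10.8, with log2 ratios of 2.09 and 1.65. Its medians in the other clusters were -0.52 and 0.93, and its log2 ratios in cluster 8 were 0.08 and 1.49. Kl, the Klotho co-receptor for the phosphate hormone FGF23, was at 1.69, 6.73, 2.44 and 6.20, with log2 ratios of 1.94 and 1.31. For Kl the medians in the other clusters were -0.40 and 0.08, and the log2 ratios in cluster 8 were 0.48 and 1.27. The apical calcium channel Trpv5 was listed at 0 in WT and was detected in the other 3 libraries, at 0.735 in Sco2KO/KI, at 1.05 in the double mutant and at 0.169 in db/db. Slc8a1, the sodium-calcium exchanger, was at 14.3, 19.8, 29.4 and 53.5. Its log2 ratios were 0.47 and 0.86 in the Sco2 comparisons, within the fold, and 1.04 and 1.43 in the db/db comparisons. The summed level of 8 connecting tubule markers was 24.1, 41.2, 43.9 and 83.6, highest in the double mutant. The sum in db/db was thus above that in Sco2KO/KI, and Slc8a1 was its largest part in each library. Clusters 8 and 12 had the same order at their ends, at 277 and 547 and at 655 and 1025 in WT and the double mutant. Of the 8 markers, 3 were past the fold above and 1 below in Sco2KO/KI against WT, where all genes had 10.2% and 11.6%. Of the same markers, 5 were above and 0 below in the double mutant against db/db, where all genes had 9.69% and 6.47%. Whether more connecting tubule cells or their RNA in the cluster had a part in this was not tested.

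Other genes higher in both Sco2 mutant libraries had other roles. Adgrg3, an adhesion receptor gene with its highest level in cluster 13, was at 2.61, 6.66, 0.869 and 2.57. It was also lower in both db/db libraries, so that WT and the double mutant were level. Nr1d1, which encodes the clock repressor Rev-erb alpha, was at 1.04, 2.94, 0.466 and 1.40. The peptide transporter Slc15a2 was at 0.220, 1.08, 0.336 and 1.46, the deacetylase Hdac9 at 0.348, 1.95, 0.652 and 1.76 and the endoplasmic reticulum chaperone Calr at 1.29, 3.57, 0.770 and 2.00. Slc15a2 had its highest level in cluster 7, and its log2 ratios in cluster 8 were 2.28 and 1.70. Medians in the other clusters were 1.38 and 0.54 for Slc15a2 and -0.14 and 0.72 for Hdac9. They were 0.04 and 0.97 for Calr, 0.07 and 0.77 for Nr1d1 and 0.42 and -0.26 for Adgrg3. Vdr, the vitamin D receptor, was at 0.892, 1.83, 0.557 and 1.60, with log2 ratios of 0.96 and 1.37. Vdr was named after its values were seen.

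**Figure D4:**
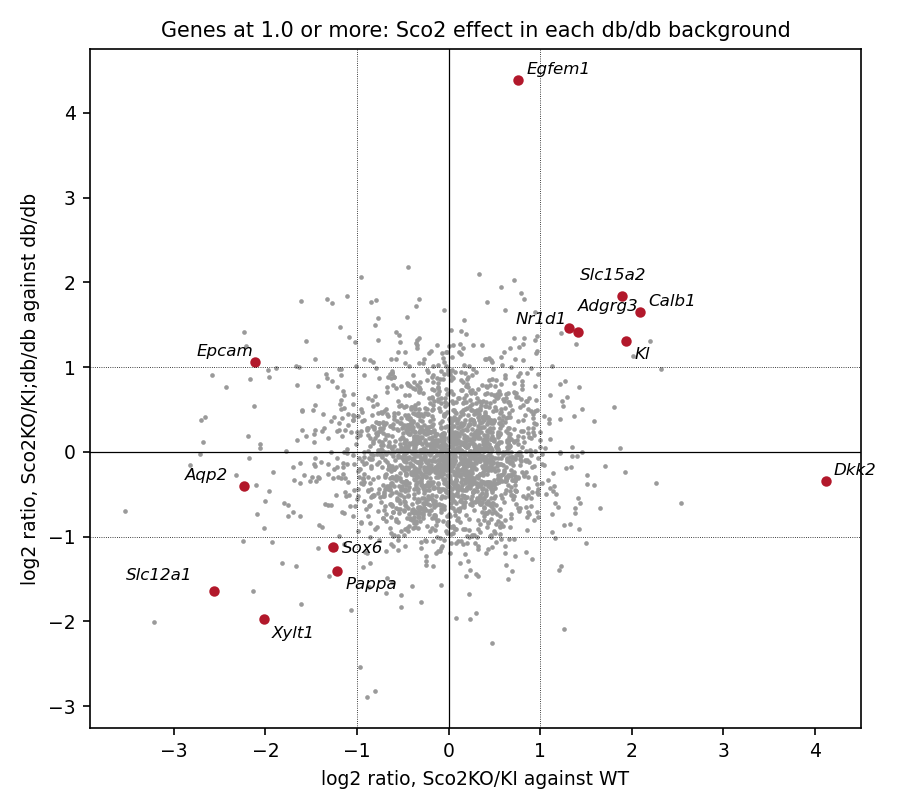
Each point is a gene at 1.0 or more in at least 1 library of each comparison, with the log2 ratio of Sco2KO/KI against WT on the x axis and of the double mutant against db/db on the y axis; dotted lines mark 1 either way. Xylt1 and Slc12a1 lie at the lower left, Calb1 and Slc15a2 at the upper right, and Dkk2 and Egfem1 lie far out along 1 axis only.

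Mitochondrially encoded transcripts, which include 3 subunits of the cytochrome c oxidase that Sco2 helps to assemble, were higher in both Sco2 comparisons and lower in db/db than in WT. In Sco2KO/KI against WT, 11 of 12 had a positive log2 ratio, with a median of 0.69, and in the double mutant against db/db 12 of 12, with a median of 0.93. Set against WT, db/db had 0 of 12 positive (median -0.78). The complex I subunit mt-Nd5 was at 2.36, 5.67, 1.45 and 4.00. The cytochrome c oxidase subunits mt-Co1 and mt-Co2 differed less between Sco2KO/KI and WT. They were at 24.4, 27.6, 13.8 and 26.4 and at 26.9, 31.5, 14.1 and 28.6. The other clusters had median log2 ratios for the list of 0.86, 0.95 and -0.85 in the same 3 comparisons, close to those of cluster 13. In the double mutant against Sco2KO/KI, 1 of 12 was positive in cluster 13 (median -0.49). These transcripts are made outside the nucleus, and the share of cytoplasmic RNA in the libraries was not tested. Nuclear genes of cytochrome c oxidase had medians of 0.04 and 0.60 in the Sco2 comparisons, and Cox8a was at 2.95, 1.12, 0.846 and 3.19. Sco2 itself was listed at 0 in cluster 13 of all 4 libraries, so it gave no check of the genotype.

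Some of the largest log2 ratios came from 1 library. Dkk2, a secreted Wnt modulator, was at 0.191, 4.94, 0.240 and 0.167, high in the 27 nuclei of Sco2KO/KI only, while its level in cluster 9 was 2.21, 3.22, 2.64 and 2.52. Egfem1 was at 0.929, 1.64, 0.358 and 9.47, high in the double mutant only, where it was also high in cluster 8, at 31.0 against 9.41 in db/db, and in cluster 12, at 13.9 against 0.540. After Dkk2, the genes highest in Sco2KO/KI against WT included the cadherin Cdh4, the cytochrome P450 Cyp4a12a, the metallothionein Mt2 and the mitochondrial malic enzyme Me2, all between 1.02 and 1.39 in Sco2KO/KI, where a level of 1.0 is a handful of UMIs. The genes lowest in that comparison included Ranbp3l, at 10.7, 1.55, 4.22 and 4.16, the transcription factor Nfe2l1, at 1.94, 0.187, 1.74 and 1.55, the ubiquitin gene Ubb, at 1.26, 0.0962, 0.228 and 0.919, and the membrane glycoprotein gene Prom1, at 1.87, 0.207, 2.45 and 2.67. Dab1, an adaptor in reelin signalling and one of the genes that lead cluster 13, was at 7.58, 1.93, 7.51 and 3.55. Dab1 was lower in both Sco2 mutant libraries, with log2 ratios of -1.92 and -1.06, against medians of -0.26 and 0.08 in the other clusters. In the double mutant against db/db, the highest after Egfem1 was the calcium-binding gene S100a11, at 0.745, 0.704, 0.101 and 1.74, and the lowest were the cytokine Il34, at 0.961, 0.761, 1.07 and 0.0446, the circadian deadenylase Noct, at 1.01, 0.497, 1.68 and 0.140, and Apobec3, a cytidine deaminase gene, at 2.02, 1.11, 3.00 and 0.339. Eif2ak3, the stress kinase PERK, was at 0.899, 1.07, 2.04 and 0.447.

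Immediate early and glycolysis genes had negative medians in both single mutants against WT. For immediate early and heat shock genes the median was -1.54 on the log2 scale when Sco2KO/KI was set against WT. Of 10 such genes, 6 were past the fold below and 0 above, against 11.6% and 10.2% of all genes. Egr1, the most abundant of them, was at 5.43, 1.73, 2.25 and 3.19 and Junb at 1.64, 0.328, 0.712 and 0.454, both highest in WT. The other clusters had a median of -0.71 for this list. In db/db the list stood at -0.52 against WT, with 3 of 10 below and 0 above (8.98% and 4.92% of all genes), and the other clusters at -1.02. Between the double mutant and db/db the median was -0.17. In the double mutant against Sco2KO/KI it went the other way, at 0.89 with 5 of 6 positive, and the other clusters stood at -0.49. Glycolysis genes had a median of -0.63 in Sco2KO/KI against WT, with 5 of 13 past the fold below and 0 above (11.6% and 10.2% of all genes). They included the glucose transporter Slc2a1, at 1.48, 0.454, 1.14 and 0.881, the pyruvate kinase Pkm, at 2.22, 0.657, 1.95 and 1.48, and the lactate dehydrogenase Ldha, at 1.37, 0.494, 0.352 and 0.827. In db/db against WT the glycolysis median was -0.35, with 10 of 13 negative. Past the fold were 1 below and 0 above (8.98% and 4.92% of all genes). On the db/db background it was -0.15. In the double mutant against Sco2KO/KI the glycolysis median was 0.47, with 7 of 12 positive. The median of all genes was 0.02 in both Sco2 comparisons, -0.08 in db/db against WT and -0.06 in the double mutant against Sco2KO/KI.

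Of 13 clock genes at the floor in the double mutant against Sco2KO/KI, 4 were past the fold above and 5 below, against 12.3% and 12.7% of all genes. In the double mutant against db/db 1 of 11 was above and 0 below, where all genes had 9.69% and 6.47%. The list's medians were 0.10 in Sco2KO/KI against WT, -0.03 for db/db against WT, 0.50 in the double mutant against db/db and 0.41 against Sco2KO/KI. Arntl, an activator of the clock, had values of 0.206 in WT and 0.915 in Sco2KO/KI and was listed at 0 in both db/db libraries, and Npas2, a related activator, was at 0.231, 1.08, 0 and 0.0419. Both were also lower in most other clusters. In db/db against WT, Arntl was negative in 16 of 18 and Npas2 in 15 of 18. In the double mutant against Sco2KO/KI, Arntl was negative in 12 of 13 and Npas2 in 11 of 13. The output gene Nr1d2 was at 0.934, 0.768, 1.65 and 2.40, and Tef at 2.08, 1.73, 3.29 and 3.35, higher in both db/db libraries. The sources used here do not give the time of day at which kidneys were taken, and its part in these values was not tested. Medians of the insulin and IGF signalling list lay between -0.25 and 0.20, and those of the tubular injury and matrix list between -0.21 and 0.15. Spp1, the gene of osteopontin, was at 2.60, 0.588, 1.63 and 3.30.

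**Figure D5:**
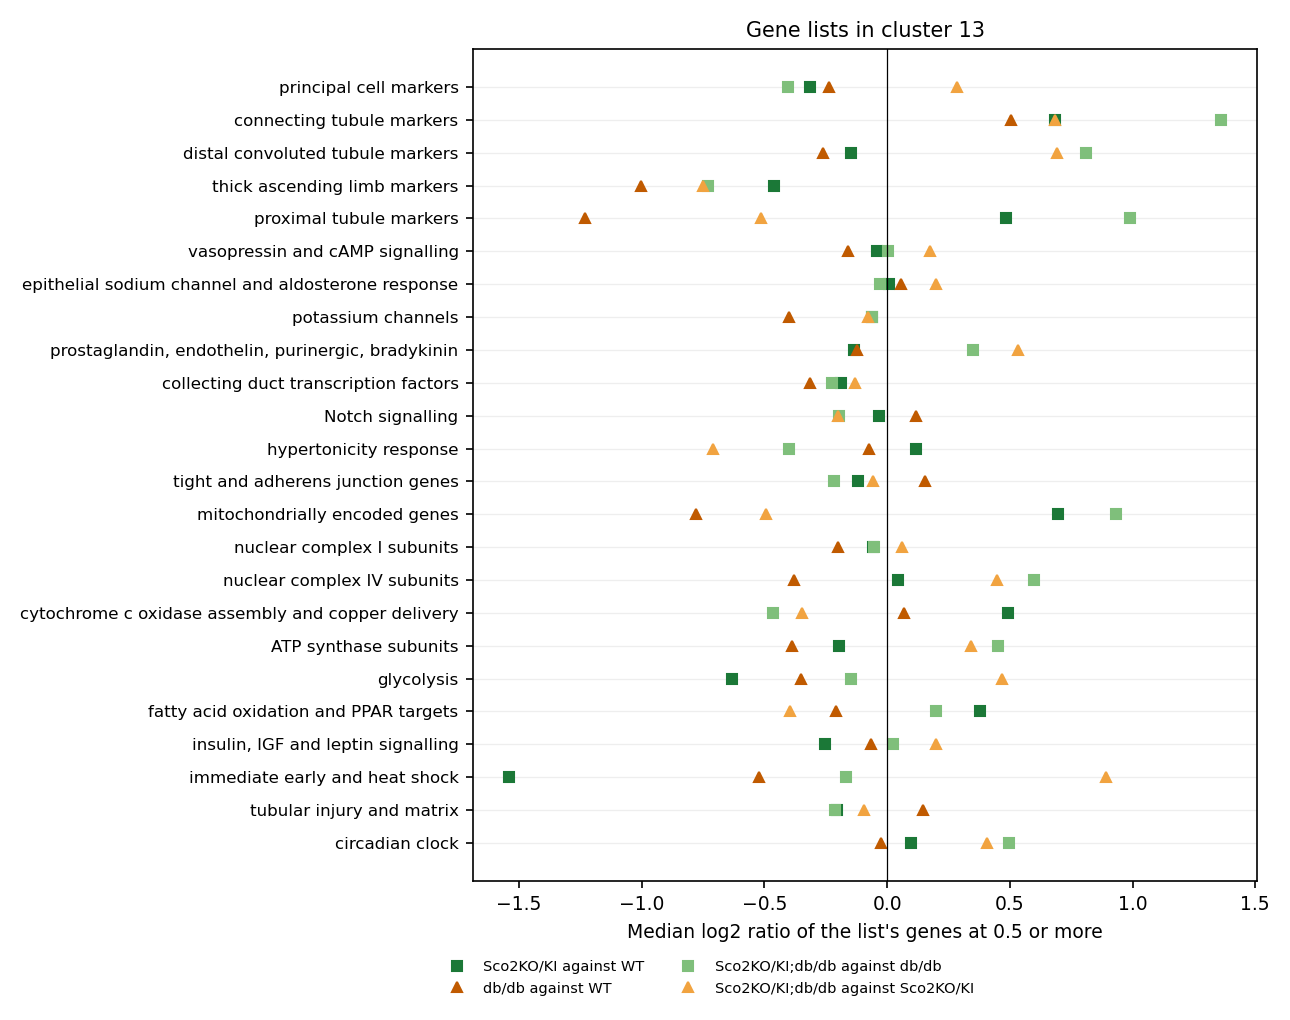
Median log2 ratio in cluster 13 of each list with at least 4 genes at 0.5 or more in every one of 4 comparisons, which leaves out the water channels (squares for the Sco2 genotype, triangles for the db/db genotype). Mitochondrially encoded, connecting tubule and proximal tubule genes lie to the right for both Sco2 comparisons. Immediate early genes lie farthest left of the lists drawn in Sco2KO/KI against WT, and sodium channel and vasopressin lists lie near 0.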

How the data were processed

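Single nuclei of mouse kidney cortex were sequenced in 4 libraries, 1 per genotype. The authors deposited normalised signal, averaged by cluster and library, of which the 4 columns of cluster 13 are described. The submitters' processing notes name Cell Ranger, Seurat and the mm10 build. The sources used here do not give filters on nuclei, doublet handling or cluster settings, and cluster means do not allow a doublet caller to be run. That each nucleus was scaled to 10000 UMIs was read from the column totals. The table has 21481 entries in 83 columns, and 0 columns were left unassigned. A set of 25 entries named by calendar dates was dropped, 0.115% to 0.149% of the signal in cluster 13. Of the other 21456 genes, 21117 had a position in GENCODE vM21.

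After the data were seen, nuclei and UMI totals were recovered from the smallest signals in each column. Where a gene has 1 UMI in 1 nucleus, 10000 over its signal equals the nuclei times that nucleus's UMI total. Recovered totals can outnumber nuclei, since a gene with more UMIs in 1 nucleus can give a fraction of that total. The largest divisor common to at least 80% of these quotients was taken (relative tolerance 1e-10), and in cluster 13 it divided at least 97.7%. This was tested on simulated data. Counts per gene stay unknown, so no counting interval is given for a level.

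Log2 ratios were taken after adding 0.1, which understates differences of low genes. A gene entered a comparison at a floor of 0.5 in at least 1 of its 2 libraries. Nuclei are not replicates, so no test, p-value or standard error was computed. Other clusters are summarised by the median log2 ratio over those with at least 20 nuclei in both libraries. Named genes are the 12 highest and 12 lowest log2 ratios per comparison, the 10 with the largest shared difference each way in both backgrounds and the 20 with the largest lead over other clusters, all at 1.0 or more, and members of 34 gene lists at 0.5 or more. Not every one is described, and 1 is not reported here. Medians are given for lists with at least 4 such genes, a limit set after the data were seen. The cluster, its markers and the lists were chosen with earlier results of these data known. Promoter windows of 250 bases came from RefSeq. Python 3.11.15, pandas 2.3.3, numpy 2.4.6 and matplotlib 3.10.9 were used.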

Additional observations from a re-analysis of the deposited data

Results flagged for a closer look

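The results below had log2 ratios past 1 in opposite directions in the 2 backgrounds. Each stands on 4 libraries without replicates, and the difference between the backgrounds was not tested. Each number of log2 units is the ratio in the second background, the double mutant comparison, minus that in the first.

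For the Sco2 genotype, Epcam, the epithelial adhesion molecule, was at 2.02, 0.391, 1.10 and 2.40, below WT in Sco2KO/KI and above db/db in the double mutant, a difference of 3.17. The cytochrome c oxidase subunit gene Cox8a differed by 3.12, the lactate dehydrogenase gene Ldha by 2.34 and the ubiquitin gene Ubb by 4.43. WT and the double mutant were the 2 highest libraries for all 4 of these genes. For the db/db genotype, Cox8a and Ubb differed by the same 3.12 and 4.43, Egfem1 by 3.63, Ranbp3l by 2.69 and S100a11 by 3.27, all below WT and then above Sco2KO/KI. The stress kinase gene Eif2ak3 was above WT in db/db and below Sco2KO/KI in the double mutant, by -2.20. In Sco2KO/KI, where 1 UMI at the median recovered UMI total is worth 0.154, Ubb was at 0.0962 and Epcam at 0.391.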

How the results depend on the processing

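With the values as reported, genes past the fold numbered 1102 in Sco2KO/KI against WT, 656 in db/db against WT, 759 in the double mutant against db/db and 1260 in the double mutant against Sco2KO/KI, with 60 shared by the Sco2 comparisons and 94 by the db/db comparisons in the same direction. The counts depend on how low values are treated. In that order they were 334, 146, 167, 387, 15 and 26 with 0.5 added in place of 0.1, and 410, 279, 296, 508, 27 and 46 with a floor of 1.0. A floor of 3.0, chosen after seeing the data, left 49, 52, 63, 74, 9 and 10. With no floor the first 4 were 3318, 2150, 2469 and 3678. Adding 0.01 gave 104 shared by the Sco2 comparisons, and leaving out genes at least 4 times higher in another cluster gave 62 shared by the db/db comparisons. Leaving out mitochondrially encoded genes, or centring the log2 ratios, kept the 4 comparison counts within 1.5 times. The share above among genes past the fold in db/db against WT was 35.4%, and 55.8% at a floor of 3.0. In the double mutant it was 59.9% against db/db, and 46.0% at that floor, and 49.3% against Sco2KO/KI, and 60% with no floor. The markers highest in cluster 13 numbered 10, between 9 and 11 without any 1 library, 10 without small clusters and 12 without clusters 8 and 12. The median of the thick ascending limb list in the double mutant against Sco2KO/KI was -0.75, and 0.10 with no floor. Of 158 values of named genes, 92 moved by over 1.5 times with 0.5 added and 39 with 0.01 added, and 0 changed sign. No paired analysis was possible because each genotype has 1 library and the labels carry no replicate numbers. The 27 nuclei of Sco2KO/KI limit every comparison with that library, since 1 UMI at the median recovered UMI total there is worth 0.154.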

Other observations

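Among the 20 genes with the largest lead in cluster 13, the order of the libraries differed from gene to gene. Btc, a ligand of the EGF receptor, was at 2.02, 0.916, 3.95 and 1.01, low in both Sco2 mutant libraries. Il1rapl1, an adhesion gene known from synapses, was lowest in db/db, at 5.55, 4.42, 2.12 and 5.51. The voltage-gated potassium channel gene Kcnc2 was highest there, at 5.31, 5.57, 11.7 and 6.96, as was Kcnh5, at 2.72, 3.36, 5.75 and 2.68. Outside those 20, the matrix gene Npnt, whose product nephronectin binds integrins, was at 8.69, 12.8, 10.8 and 5.84.

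Of the 16 junction genes at the floor in the double mutant against Sco2KO/KI, 3 lay past the fold above and 2 below, near the 12.3% and 12.7% of all genes. E-cadherin, Cdh1, was at 7.38, 7.58, 8.24 and 5.55, while the kidney cadherin Cdh16 was highest in WT, at 8.93, 3.40, 4.58 and 6.25. The collecting duct claudin Cldn8 was at 0.674, 0.393, 0.563 and 1.04. Median log2 ratios of the junction list lay between -0.22 and 0.16.

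The insulin receptor Insr was at 4.10, 3.80, 5.60 and 5.23, and the adaptor Irs2 at 0.684, 0.106, 0.554 and 0.547. Notch signalling favours the principal over the intercalated cell fate in mice. Its target Hes1 was highest in WT, at 2.89, 1.39, 0.966 and 1.11. The hypertonicity factor Nfat5 was at 6.72, 10.9, 8.45 and 7.75.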
